A study of Mus musculus with 16 samples.

Results

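The genes described here encode enzymes that place acetyl and methyl groups on histones, enzymes that take methyl groups off, and bromodomain proteins that read acetyl groups. Members were the bead array probes whose gene symbol begins with Kat, Kdm, Jmjd, Jarid, Setd, Prmt, Suv, Brd, Ehmt or Ezh (Kat and Brd followed by a digit, older Myst symbols included), or is Ep300, with genes on chromosomes X and Y left out. A member also had to stand above the negative control beads (detection p-value below 0.05) on 3 or more of the 16 arrays. Of 98 probes of 54 genes that matched by symbol, 7 probes of 4 genes lay on X or Y, 25 autosomal probes were not detected often enough, and 66 probes of 40 genes remained, out of 13706 probes that passed the same filter and 25697 on the array. Crebbp was not analysed here.

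RNA came from the gastrocnemius, a calf muscle, of B6C3F1/J mice, with a separate animal number for each array. The 4 groups were N17182Q transgenic mice (Tg/+) given 4b (Tg_4b, n = 3), transgenic mice given vehicle (Tg_vehicle, n = 4), wild-type mice given 4b (WT_4b, n = 5) and wild-type mice given vehicle (WT_vehicle, n = 4). The transgene expresses an N-terminal piece of mutant huntingtin with a long glutamine stretch under the prion protein promoter, as a model of Huntington disease, and these mice keep their own Htt gene; 4b inhibits histone deacetylases. The labels used here state neither the dose and duration of 4b nor the animals' age or sex. The comparisons ask how these genes differ between genotypes under each treatment and whether 4b shifts them in either genotype.

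Histone acetyltransferases loosen chromatin by acetylating lysines of histone tails, histone deacetylases (the targets of inhibitors such as 4b) reverse this, and bromodomain proteins bind the acetylated tails. Lysine methyltransferases of the SET domain family and arginine methyltransferases of the Prmt family write methyl marks that either favour or silence transcription, depending on the residue, and demethylases of the Kdm family erase the lysine marks. In skeletal muscle these enzymes work with the myogenic transcription factors: Kat2b and Ep300 acetylate MyoD and histones at muscle genes, and the Polycomb methyltransferases Ezh2 and Ezh1 hold such genes silent or, for Ezh1, act in differentiated fibres.

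Values below are log2 intensities after background correction and quantile normalization, and a difference is called when limma's Benjamini-Hochberg adjusted p over all 13706 probes is under 0.05. Where a difference is given as "with 4b" or "with vehicle", it is that of transgenic over wild-type mice under the treatment named, not an effect of the treatment. Total raw intensity ran from 18315919 to 21095303 on transgenic arrays and from 14220719 to 20056940 on wild-type arrays, the share of probes detected ran from 42.7% to 50.3%, and pairs of arrays correlated at 0.898 to 0.984. The muscle genes Acta1 and Ckm were near the top of the scale on every array (14.90 and above). Prnp, whose promoter drives the transgene, lay between 13.99 and 15.09 on the transgenic arrays and between 13.33 and 13.78 on the wild-type arrays, so the genotypes did not overlap. The Htt probe lies in the mouse gene, was detected on 9 arrays and checks nothing about the transgene. In such bulk tissue, fewer cells of a type and less RNA per cell cannot be told apart.

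All 66 member probes were detected in both genotypes, 49 of them on all 16 arrays and 17 on fewer. For 10 of the 50 autosomal genes, among them Jarid2, Suv39h2, Kdm2b and Brd1, no probe passed. Just inside the filter, with 3 arrays each, were a Kat6b probe (4.86 to 5.74) and a Setd4 probe (4.78 to 5.57). Just outside, with 2 arrays each, were probes of Jmjd4 (4.99 to 5.79), Kdm1b (4.63 to 5.69) and Kdm2b (4.81 to 5.60) and a second Kdm4a probe (4.53 to 6.87).

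Muscle of transgenic mice given 4b had more mRNA of many of these enzymes than muscle of wild-type mice given 4b, and of the 2 genes that were lower, one writes arginine methylation and the other is a JmjC protein. The histone H3 lysine demethylase gene Kdm4a was 2.70-fold higher, and the Polycomb methyltransferase gene Ezh1 3.95-fold higher on 1 of its 2 probes. The other Ezh1 probe had a log2 difference of 0.34 and was not called. Kdm4b, Kdm3a and Kat8 were between 1.59-fold and 2.10-fold higher across their probes. Jmjd8 was 2.74-fold lower and Prmt2 1.91-fold to 2.17-fold lower on its 2 probes. The sizes depend on the background correction: without it the log2 difference was 0.64 in place of 1.43 for Kdm4a, 1.02 in place of 1.98 for Ezh1, 0.59 in place of 1.06 for the second Kdm4b probe and -0.89 in place of -1.46 for Jmjd8, all still called. In all, 26 of 66 member probes, of 19 genes, were called (39.4%), against 27.4% of all probes tested, and 2 of the 26 reached the detection filter only through the transgenic arrays. Higher in transgenic mice were 23 (34.8%, against 15.6% of all probes) and lower were 3 (4.55%, against 11.8%). The median difference of the members was 0.37, against 0.02 over all probes, and 53 of 66 were above 0. Arrays of transgenic and wild-type mice did not overlap for 31 member probes (47.0%) and for 30.6% of all probes. Among the 49 members detected on every array, 18 were higher (36.7%), against 18.7% of the 9187 such probes in the series.

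With vehicle, the same comparison of genotypes called 2 of 66 member probes (3.03%), against 5.25% of all probes. Both, Kdm4a and Kat2b, were higher (2.35% of all probes were called higher) and 0 were lower (2.9% of all probes). The median difference was 0.19 for members and 0.01 for all probes, and 14 member probes had an unadjusted p under 0.05 (21.2%, against 20.7% of all probes). Genotypes did not overlap for 6 member probes (9.09%) and for 12.4% of all probes. By these shares the members did not stand above the background with vehicle. Averaged over both treatments, 30 member probes of 21 genes were called (45.5%), against 32.1% of all probes: 28 higher (42.4%, against 17.9%) and 2 lower (3.03%, against 14.3%). The 28 include Kat2b ILMN_2591641 and Kat5 ILMN_1232000, which reached the detection filter only through the transgenic arrays. Among the probes detected on all arrays, 22 of 49 members were higher (44.9%), against 21% of such probes. Of the 26 probes called with 4b, 23 had the same sign with vehicle, 22 were also called on average, and all 26 differed more with 4b than with vehicle. The 26 were picked by their difference with 4b, which favours a larger size there. The average holds that same difference, so the last 2 counts are no separate support. The test of a larger difference under 4b, the genotype by 4b interaction, called 0 of them (given after the groups of enzymes), so it is not shown that the genotypes differ more under 4b.

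These counts depend on a few arrays and on the scaling. Without Tg_4b replicate 1 the count with 4b was 15, and it lay between 18 and 27 without any other single array. Without the 6 arrays whose lymphocyte score was above 0, which left 1 transgenic array with 4b, it was 0 with 5 of all probes called, while the members' median was 0.30. In that fit, whose spread for the lone array is taken from the other groups, the difference with 4b was 1.36 for Kdm4a, 1.05 for Kdm4b ILMN_2990420, 0.68 for Ezh1 ILMN_3107974, 0.51 for Kat8, 0.496 for Kat5 ILMN_1232000, -0.70 for Jmjd8 and -0.60 for Prmt2 ILMN_3099751, at limma adjusted p of 0.16 to 0.529. Averaged over treatments, fewer members were called without these arrays. Their median was then 0.24, against 0.01 over all probes. When arrays were scaled to a common median instead, the median over all probes became 0.13 with 4b, 0.12 with vehicle and 0.12 on average, and the share of all calls that were higher was 74.9%, 71.7% and 74.6%, against 57.0%, 44.8% and 55.6% after quantile normalization. Under it the members' medians were 0.60, 0.31 and 0.44, and 39 of 66 were called higher and 2 lower with 4b. Of all 13706 probes, 4253 (31.0%) were then called with 4b, 3186 of them higher.

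**Figure D1:**
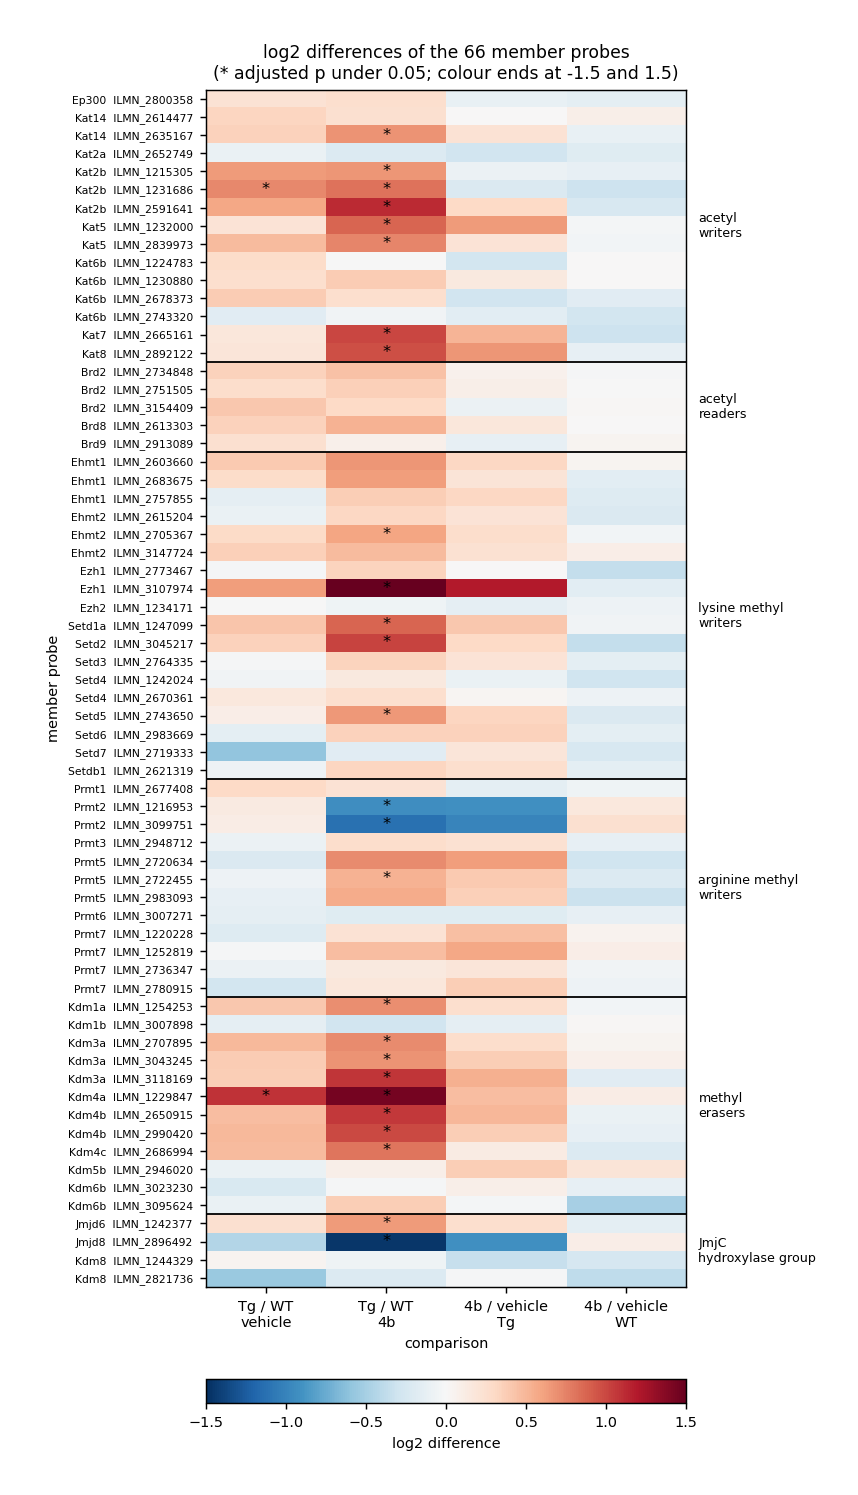
Log2 difference of each of the 66 member probes (rows, grouped by role) in 4 comparisons (columns), with a star where the adjusted p was under 0.05; the colour scale ends at -1.5 and 1.5. The column for transgenic over wild-type mice given 4b has 26 stars, the column for vehicle has 2, and the columns for 4b over vehicle have none.

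The promoters of the genes that differed most in each direction are given first, so that they can be set beside the values: Kdm4a and Ezh1, which stood highest in transgenic over wild-type mice given 4b, and Prmt2 and Jmjd8, the called genes that stood lower. Each run is the RefSeq sequence (GRCm38.p6) from 250 bases before to 50 bases after the gene's start, on the gene's strand. Capitals mark an E-box, the CANNTG element bound by MyoD and its relatives, or a CCAAT box (CCAAT, or ATTGG when it lies on the other strand).
Kdm4a, chr4:118179994-118180293, minus strand: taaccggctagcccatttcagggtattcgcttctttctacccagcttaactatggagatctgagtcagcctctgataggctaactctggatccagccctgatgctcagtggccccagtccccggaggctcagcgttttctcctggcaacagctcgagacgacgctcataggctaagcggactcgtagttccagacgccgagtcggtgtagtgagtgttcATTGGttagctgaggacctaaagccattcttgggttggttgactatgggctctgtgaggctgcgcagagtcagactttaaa
Ezh1, chr11:101226414-101226713, minus strand: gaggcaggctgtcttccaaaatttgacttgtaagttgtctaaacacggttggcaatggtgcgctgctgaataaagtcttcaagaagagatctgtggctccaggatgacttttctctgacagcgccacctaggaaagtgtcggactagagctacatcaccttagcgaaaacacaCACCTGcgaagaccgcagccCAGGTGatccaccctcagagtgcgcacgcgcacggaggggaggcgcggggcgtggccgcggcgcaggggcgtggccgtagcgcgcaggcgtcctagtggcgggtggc
Prmt2, chr10:76237816-76238115, minus strand: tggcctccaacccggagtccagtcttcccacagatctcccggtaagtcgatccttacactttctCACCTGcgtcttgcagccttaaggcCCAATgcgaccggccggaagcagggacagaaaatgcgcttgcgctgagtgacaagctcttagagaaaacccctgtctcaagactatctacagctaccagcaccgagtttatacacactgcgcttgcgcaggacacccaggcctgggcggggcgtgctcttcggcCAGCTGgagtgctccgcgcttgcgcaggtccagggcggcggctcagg
Jmjd8, chr17:25828793-25829092, plus strand: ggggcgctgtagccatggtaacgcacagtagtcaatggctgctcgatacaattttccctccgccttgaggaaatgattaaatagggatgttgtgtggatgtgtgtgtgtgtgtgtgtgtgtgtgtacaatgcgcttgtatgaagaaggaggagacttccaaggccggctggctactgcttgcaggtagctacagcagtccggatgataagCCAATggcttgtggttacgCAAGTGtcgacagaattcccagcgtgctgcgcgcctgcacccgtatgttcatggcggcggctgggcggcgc
Ezh1 and Prmt2 each held 2 E-boxes, Jmjd8 held 1 and Kdm4a held 0, while Kdm4a, Prmt2 and Jmjd8 each held 1 CCAAT box and Ezh1 held 0. GC content was 53.3% in Kdm4a, 59.3% in Ezh1, 60.3% in Prmt2 and 54.7% in Jmjd8. Over both strands, 49 promoters of 37 member genes that the table holds had an E-box in 63.3% of cases and a CCAAT box in 40.8%, against 72.3% and 37.4% of all 32851 promoters of this length. A GC box (GGGCGG or its reverse) stood in 61.2% of member promoters and 35.7% of all promoters, and the core motif of the muscle factor MEF2 in 0% and 3.69%. Member promoters had a median GC content of 61.7% and a median of 24 CpG, against 52.7% and 7 over all promoters. A match says only that these letters stand in this window.

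Among the acetyl writers, 8 of 15 probes, of 5 of the 8 genes, were higher in transgenic mice given 4b than in wild-type mice given 4b, 0 were lower, and their median difference was 0.66. Kat2b (PCAF), which acetylates histone H3 and the muscle factor MyoD, was measured by 3 probes. On ILMN_1231686 the arrays with 4b read 8.23, 7.95 and 8.24 in transgenic mice and 7.38, 7.76, 6.96, 7.23 and 7.30 in wild-type mice. With vehicle they read 8.47, 8.55, 8.46 and 7.94 in transgenic mice and 8.02, 7.36, 7.71 and 7.43 in wild-type mice. All 3 transgenic arrays with 4b lay above all wild-type arrays with 4b, whereas with vehicle the lowest transgenic array fell below the highest wild-type one. The difference was 0.81 ± 0.20 (SE) with 4b (limma adjusted p = 0.00859) and 0.73 ± 0.20 (SE) with vehicle (adjusted p = 0.0455). The vehicle call was lost without any one of 11 arrays (adjusted p up to 0.133, without Tg_vehicle replicate 1), at a difference of 0.64 to 0.75. The other Kat2b probes differed by 0.66 ± 0.22 (SE) and 1.12 ± 0.28 (SE) with 4b (adjusted p = 0.0371 and 0.00912), and by 0.63 and 0.58 with vehicle without passing (adjusted p = 0.0993 and 0.241). The last of these, ILMN_2591641, was detected on all 7 transgenic arrays, 1 of 5 wild-type arrays with 4b and 0 of 4 with vehicle, so with vehicle its fold has only a bound, at least 1.23-fold higher, set by the lowest signal of detected probes. It passed the detection filter only through the transgenic arrays, and without background correction its difference with 4b was 0.44, so it adds no support to the other probes.

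Kat5 (Tip60) and Kat8 (MOF) are MYST family acetyltransferases that act on histone H4. Kat8 read 10.88, 10.71 and 10.32 in transgenic mice given 4b and 9.52, 9.99, 9.41, 9.83 and 9.60 in wild-type mice given 4b, with no overlap. With vehicle the groups overlapped, at 10.46, 9.73, 10.23 and 9.48 in transgenic mice and 10.18, 9.39, 9.91 and 9.70 in wild-type mice. It differed by 0.97 ± 0.24 (SE) with 4b (limma adjusted p = 0.00803) and by 0.18 ± 0.23 (SE) with vehicle (adjusted p = 0.717). Without Tg_4b replicate 1 the call with 4b was lost, at 0.85 and an adjusted p of 0.0510. Both Kat5 probes were higher with 4b, by 0.87 ± 0.18 (SE) on ILMN_1232000 and 0.73 ± 0.25 (SE) on ILMN_2839973 (adjusted p = 0.00355 and 0.0397). The dimmer of these, ILMN_1232000, read 6.46, 6.22 and 5.80 in transgenic mice and 5.12, 5.41, 5.44, 5.16 and 5.34 in wild-type mice given 4b, and was detected on 1 of those 5 wild-type arrays. It too passed the detection filter only through the transgenic arrays, and without background correction it differed by 0.32, so the measured size for Kat5 rests on ILMN_2839973. Kat14, a subunit of the ATAC acetyltransferase complex, was higher on its brighter probe by 0.67 ± 0.14 (SE) (adjusted p = 0.00353), with transgenic arrays at 11.12, 11.05 and 11.06 and wild-type arrays at 10.27, 10.27, 10.26, 10.70 and 10.55. Its dim probe differed by 0.24 without passing. Kat7 (HBO1), which acetylates H3K14 and is named here after its value was seen, was higher by 0.997 ± 0.34 (SE) with 4b (adjusted p = 0.0405). Ep300 (p300), a coactivator of many factors, did not pass in any comparison: it differed by 0.25 ± 0.14 (SE) with 4b and 0.22 ± 0.13 (SE) with vehicle (adjusted p = 0.188 and 0.368). Kat2a, and the 4 Kat6b probes, were not called with 4b and lay between -0.21 and 0.38.

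The methyl erasers gave the same count, 8 of 12 probes higher and 0 lower with 4b, in 5 of 8 genes, with a median of 0.70. Kdm4a, Kdm4b and Kdm4c remove trimethylation from H3K9 and H3K36. Kdm4a (ILMN_1229847) read 7.22, 6.99 and 6.89 in transgenic mice given 4b, against 5.84, 5.40, 5.55, 5.56 and 5.65 in wild-type mice given 4b. It read 7.58, 6.36, 6.36 and 5.98 in transgenic mice given vehicle, against 5.71, 5.09, 5.62 and 5.52 in wild-type mice given vehicle. Every transgenic array lay above every wild-type array, and 1 transgenic vehicle array (replicate 1) stood above all the rest. The difference was 1.43 ± 0.27 (SE) with 4b, 2.70-fold (limma adjusted p = 0.00188), and 1.08 ± 0.26 (SE) with vehicle, 2.12-fold (adjusted p = 0.0276). The probe is dim, detected on 14 arrays, and the background step sets the size of its fold: with no such correction the vehicle difference was 0.46 and did not pass (adjusted p = 0.0587). The vehicle call was also lost without WT_vehicle replicate 2 (0.95, adjusted p = 0.0848) or replicate 3 (1.13, adjusted p = 0.0628).

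Kdm4b, on the bright probe ILMN_2990420, read 10.82, 11.01 and 10.94 in transgenic mice given 4b and 10.06, 9.80, 9.93, 10.02 and 9.88 in wild-type mice given 4b. The corresponding vehicle values were 10.996, 10.34, 10.72 and 10.16 in transgenic mice and 10.15, 10.16, 10.02 and 9.92 in wild-type mice. The 3 arrays of transgenic mice given 4b lay close together and well above the wild-type arrays, while 2 of 4 transgenic vehicle arrays lay close to the highest wild-type vehicle array. The difference with 4b was 0.99 ± 0.17 (SE), 1.98-fold (limma adjusted p = 0.00105), and 0.49 ± 0.16 (SE) with vehicle (adjusted p = 0.0943). The second Kdm4b probe differed by 1.06 ± 0.24 (SE) with 4b (adjusted p = 0.005) and 0.47 ± 0.23 (SE) with vehicle (adjusted p = 0.265). Kdm4c was higher by 0.80 ± 0.21 (SE) with 4b (adjusted p = 0.0121) and by 0.64 ± 0.15 (SE) averaged over treatments (adjusted p = 0.00434).

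Kdm3a, which removes mono- and dimethylation from H3K9, was higher with 4b on all 3 of its probes, by 0.71 ± 0.22 (SE), 0.67 ± 0.24 (SE) and 1.07 ± 0.23 (SE) (limma adjusted p = 0.0291, 0.0487 and 0.00359). On ILMN_3118169 the transgenic arrays with 4b read 8.502, 8.37 and 8.31 and the wild-type arrays with 4b 7.27, 7.16, 7.36, 7.68 and 7.14. With vehicle the genotypes overlapped, at 8.06, 7.22, 7.80 and 8.36 in transgenic mice and 7.55, 7.33, 7.19 and 7.90 in wild-type mice. Kdm1a (LSD1), the flavin-dependent H3K4 demethylase, read 10.63, 10.37 and 10.22 in transgenic mice given 4b and 9.83, 9.48, 9.56, 9.99 and 9.69 in wild-type mice given 4b, a difference of 0.70 ± 0.16 (SE) (adjusted p = 0.0055). With vehicle it differed by 0.40 ± 0.15 (SE), with no overlap between the genotypes but an adjusted p of 0.149. The other erasers did not pass: Kdm6b, which acts on H3K27, differed by -0.016 ± 0.16 (SE) and 0.37 ± 0.24 (SE) on its 2 probes with 4b, and Kdm1b and Kdm5b by -0.29 and 0.088.

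**Figure D2:**
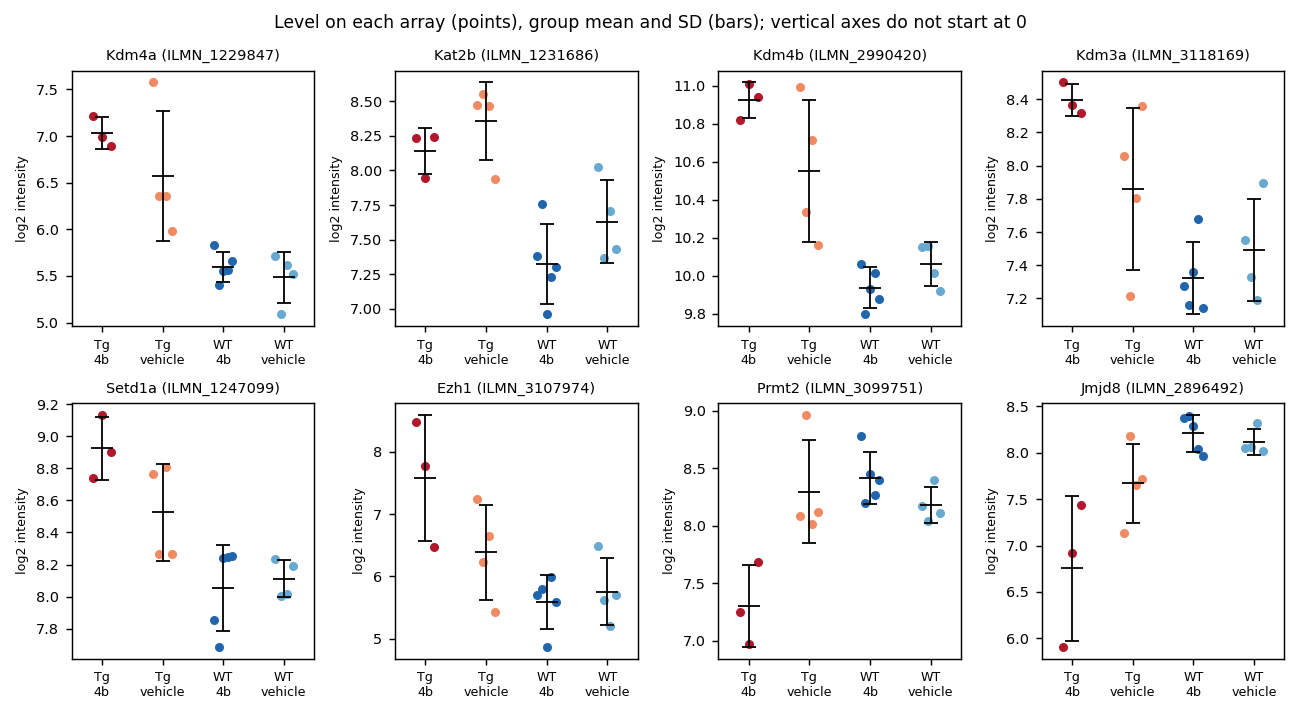
Log2 intensity of 8 called probes on each array (points), with the mean and SD of each group (bars); the vertical axes do not start at 0. For Kdm4a all 7 transgenic arrays lie above all 9 wild-type arrays, and for Prmt2 the 3 arrays of transgenic mice given 4b, between 6.97 and 7.68, lie below the 13 other arrays.

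Of 18 probes of lysine methyl writers, 5 were higher with 4b, 1 each for 5 of 12 genes, and 0 were lower, with a median of 0.36. Ezh1, the Polycomb H3K27 methyltransferase of differentiated cells, had the largest difference among the members on ILMN_3107974. That probe read 8.47, 7.78 and 6.48 in transgenic mice given 4b and 5.71, 5.79, 4.87, 5.996 and 5.597 in wild-type mice given 4b. With vehicle it read 7.24, 6.22, 6.65 and 5.43 in transgenic mice and 6.49, 5.63, 5.20 and 5.70 in wild-type mice. The transgenic arrays ran from 6.48 to 8.47 with 4b, and with vehicle the genotypes overlapped. The difference was 1.98 ± 0.44 (SE) with 4b (95% interval 1.04 to 2.93, limma adjusted p = 0.00488) and 0.63 ± 0.43 (SE) with vehicle (adjusted p = 0.444). Its second probe, detected on 6 arrays, differed by 0.34 ± 0.18 (SE) with 4b and -0.017 ± 0.17 (SE) with vehicle and did not pass (adjusted p = 0.176 and 0.97); it was not detected on any wild-type array with 4b. Ezh2, the enzyme of dividing cells, differed by -0.068 ± 0.30 (SE) with 4b and -0.0067 ± 0.29 (SE) with vehicle (95% intervals -0.70 to 0.56 and -0.62 to 0.60).

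Setd1a, the catalytic subunit of a COMPASS complex that methylates H3K4, read 8.74, 9.13 and 8.90 in transgenic mice given 4b and 7.86, 7.69, 8.24, 8.24 and 8.25 in wild-type mice given 4b. With vehicle it read 8.77, 8.27, 8.81 and 8.26 in transgenic mice and 8.24, 8.01, 8.02 and 8.19 in wild-type mice. The genotypes did not overlap under either treatment, though 2 of the transgenic vehicle arrays lay just above the highest wild-type array. It differed by 0.87 ± 0.18 (SE) with 4b (limma adjusted p = 0.00346) and 0.41 ± 0.18 (SE) with vehicle (adjusted p = 0.195). The other 3 called genes, named after their values were seen, were Setd2, which trimethylates H3K36 (1.02 ± 0.26 (SE), adjusted p = 0.0107), Setd5 (0.65 ± 0.21 (SE), adjusted p = 0.0288) and Ehmt2 (G9a), which dimethylates H3K9 (0.59 ± 0.18 (SE) on 1 of 3 probes, adjusted p = 0.0211). Setd7, a cofactor of MyoD in mouse myoblasts, had the lowest vehicle difference among the members, -0.59 ± 0.22 (SE), from a probe detected on 5 arrays, and did not pass (adjusted p = 0.138). With 4b it differed by -0.17 ± 0.23 (SE). Setd6, which methylates the NF-kappaB subunit RelA, differed by 0.35 ± 0.14 (SE) with 4b and -0.14 ± 0.14 (SE) with vehicle (adjusted p = 0.0776 and 0.614). The uncalled probes of this group, which include Ehmt1, Setd3, Setd4 and Setdb1, lay between -0.17 and 0.66 with 4b.

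Arginine methyl writers split in direction. Of 12 probes of 6 genes, 1 was higher and 2 were lower with 4b, and the median was 0.21. The 2 lower ones were both probes of Prmt2, an arginine methyltransferase that also acts as a coactivator of nuclear receptors. On ILMN_3099751 the arrays with 4b read 7.25, 6.97 and 7.68 in transgenic mice and 8.78, 8.20, 8.45, 8.27 and 8.40 in wild-type mice. The arrays with vehicle read 8.08, 8.96, 8.01 and 8.12 in transgenic mice and 8.17, 8.04, 8.40 and 8.11 in wild-type mice. The 3 transgenic arrays with 4b lay below every other array, and the vehicle groups overlapped. With 4b the difference was -1.11 ± 0.22 (SE) (limma adjusted p = 0.00247) and with vehicle 0.12 ± 0.21 (SE) (adjusted p = 0.815). The other Prmt2 probe, ILMN_1216953, differed by -0.93 ± 0.25 (SE) with 4b (adjusted p = 0.0129) and by 0.14 ± 0.24 (SE) with vehicle. Its call was lost under median scaling (-0.76, adjusted p = 0.0561) and without Tg_4b replicate 2 (-0.77, adjusted p = 0.0803).

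Prmt5, which places symmetric dimethylation, was higher on ILMN_2722455 by 0.53 ± 0.17 (SE) with 4b (limma adjusted p = 0.0362), at 10.33, 10.13 and 10.27 in transgenic mice and 9.62, 9.83, 9.48, 9.85 and 9.80 in wild-type mice. Its other probes differed by 0.71 ± 0.33 (SE) and 0.56 ± 0.21 (SE) (adjusted p = 0.127 and 0.0579). With vehicle all 3 Prmt5 probes lay below 0, at -0.072, -0.22 and -0.12. Prmt1, the main source of asymmetric dimethylation, read 12.64, 12.80, 12.83 and 12.72 in transgenic mice given vehicle and 12.46, 12.54, 12.46 and 12.34 in wild-type mice given vehicle, with no overlap. That difference, 0.30 ± 0.11 (SE), did not pass (adjusted p = 0.149), nor did the one with 4b (0.21 ± 0.12 (SE), adjusted p = 0.197), but averaged over treatments Prmt1 was higher by 0.26 ± 0.083 (SE) (adjusted p = 0.0272). Prmt3, Prmt6 and the 4 probes of Prmt7, which places monomethylation, lay between -0.19 and 0.47 with 4b and were not called.

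The JmjC hydroxylase group holds Jmjd6, Jmjd8 and Kdm8, which share the JmjC fold with the demethylases. Jmjd8, a protein of the endoplasmic reticulum, was the lowest member with 4b. It read 5.91, 6.92 and 7.43 in transgenic mice given 4b and 8.37, 8.39, 8.28, 8.04 and 7.96 in wild-type mice given 4b. It read 7.14, 8.18, 7.65 and 7.71 in transgenic mice given vehicle and 8.05, 8.06, 8.32 and 8.02 in wild-type mice given vehicle. The groups did not overlap with 4b, where the transgenic arrays ran from 5.91 to 7.43, and with vehicle 1 transgenic array lay inside the wild-type range. The difference was -1.46 ± 0.28 (SE) with 4b, 2.74-fold lower (limma adjusted p = 0.00199), and -0.44 ± 0.27 (SE) with vehicle (adjusted p = 0.383). Jmjd6, which hydroxylates lysines of splicing proteins, was higher with 4b, at 11.76, 12.12 and 11.77 in transgenic mice and 11.22, 11.22, 11.03, 11.47 and 11.33 in wild-type mice (0.63 ± 0.14 (SE), adjusted p = 0.00429). The 2 Kdm8 probes differed by -0.067 and -0.20 and were not called.

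None of the 5 acetyl reader probes was called with 4b (limma; 2 had an unadjusted p under 0.05), although all 5 lay above 0, between 0.077 and 0.52. Averaged over treatments 3 of them were called, 2 of the 3 Brd2 probes (0.31 ± 0.11 (SE) and 0.35 ± 0.10 (SE), adjusted p = 0.042 and 0.0161) and the single Brd8 probe (0.43 ± 0.16 (SE), adjusted p = 0.0486). Brd2 is a BET protein that binds acetylated H4, and Brd8 belongs to the Kat5 complex. These 3 were named after their values were seen.

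Averaged over both treatments, the probes higher in transgenic mice included Kdm4a (1.26 ± 0.19 (SE), limma adjusted p = 0.000254) and Kdm4b (0.74 ± 0.12 (SE) and 0.76 ± 0.17 (SE)). Kat2b was higher by 0.77 ± 0.14 (SE) on ILMN_1231686. Its probe ILMN_2591641, at 0.85 ± 0.20 (SE), passed the detection filter only through the transgenic arrays and adds no support. Kat14 differed by 0.51 on average, Setd1a by 0.64, Kdm1a by 0.55, Kdm3a by 0.72, Jmjd6 by 0.44 and Ezh1 by 1.31, with adjusted p of at most 0.00496. The 2 lower ones were Jmjd8 (-0.95 ± 0.19 (SE), adjusted p = 0.00199) and Prmt2 ILMN_3099751 (-0.50 ± 0.15 (SE), adjusted p = 0.022). The Prmt2 call was lost without Tg_4b replicate 2 (-0.42, adjusted p = 0.0742) and under median scaling (-0.33, adjusted p = 0.166), and its vehicle difference was above 0. Called on average but not under either treatment alone were also 2 of 3 Ehmt1 probes (0.52 and 0.45), a second Ehmt2 probe (0.42) and 1 of 4 Kat6b probes (0.31), named after their values were seen.

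No member passed the test of 4b against vehicle within a genotype. In transgenic mice, 4b against vehicle called 0 of 66 member probes, as it did 0% of all 13706 probes (limma), and 10 members had an unadjusted p under 0.05 (15.2%, against 14.2% of all probes). The members' median was 0.21, against -0.0087 over all probes, and 46 of 66 were above 0. The probes with the smallest p in each direction were Kat5 ILMN_1232000 (0.64 ± 0.19 (SE)), Kat8 (0.66 ± 0.25 (SE)) and Ezh1 ILMN_3107974 (1.19 ± 0.47 (SE)) above 0, and Prmt2 ILMN_3099751 (-0.99 ± 0.23 (SE)), Prmt2 ILMN_1216953 (-0.91 ± 0.26 (SE)) and Jmjd8 (-0.92 ± 0.29 (SE)) below 0, at limma adjusted p of 0.145 to 0.271. Prmt2 lay at 7.30 ± 0.36 (SD, n = 3) on ILMN_3099751 in transgenic mice given 4b and 8.29 ± 0.45 (SD, n = 4) in those given vehicle, without overlap. Without Tg_4b replicate 3, which then left 2 arrays, 4 member probes were called (Prmt2 ILMN_3099751 at -1.18, Jmjd8 at -1.26, Ezh1 at 1.74 and Kat5 at 0.82), and without Tg_vehicle replicate 1 the count was 2. With array weights 9 were called, 5 higher and 4 lower, along with 2271 of all probes.

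In wild-type mice, 4b against vehicle called 0 members and 0% of all probes (limma), and 2 members had an unadjusted p under 0.05 (3.03%, against 2.66% of all probes). The median was -0.12 for members and -0.03 for all probes, and 48 of 66 lay below 0. The smallest p below 0 belonged to Kdm6b ILMN_3095624 (-0.49 ± 0.22 (SE)), which removes H3K27 methylation, Ezh1 ILMN_2773467 and Kat6b ILMN_2743320. The last 2 were not detected on any wild-type array with 4b, so their differences there are not measured. Kdm6b read 6.84, 6.86, 7.07, 7.002 and 6.81 in wild-type mice given 4b and 7.38, 7.61, 7.57 and 7.07 in wild-type mice given vehicle, which just missed overlapping. Above 0 were Prmt2 ILMN_3099751 (0.24 ± 0.20 (SE)) and ILMN_1216953 (0.15 ± 0.23 (SE)) and Kdm5b (0.19 ± 0.22 (SE)), and all 6 probes had a limma adjusted p of 0.9998.

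The interaction, the effect of 4b in transgenic mice minus its effect in wild-type mice, also called 0 members and 0% of all probes (limma), with 10 members at an unadjusted p under 0.05 (15.2%, against 9.79% of all probes). The members' median was 0.30, against 0.02 for all probes. The smallest p below 0 belonged to Prmt2, at -1.23 ± 0.31 (SE) on ILMN_3099751 (95% interval -1.89 to -0.57, limma adjusted p = 0.43) and -1.07 ± 0.35 (SE) on ILMN_1216953 (adjusted p = 0.442). Jmjd8 followed below 0 at -1.01 ± 0.39 (SE). The smallest p above 0 belonged to Kat5 ILMN_1232000 (0.67 ± 0.26 (SE)), Setd6 (0.49 ± 0.20 (SE)) and Prmt5 ILMN_2722455 (0.60 ± 0.24 (SE)). Each had a limma adjusted p of 0.477. That Kat5 probe was detected on 1 wild-type array under each treatment, so the wild-type part of its value lies near background. With array weights the Prmt2 probe ILMN_3099751 alone was called (-1.36, adjusted p = 0.0462). These comparisons share arrays, so their values are only given side by side.

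Probes of one gene mostly agreed in sign. Of 16 genes with more than 1 member probe, 9 had a called probe with 4b; in 5 of these (Kat2b, Kat5, Kdm3a, Kdm4b and Prmt2) all probes were called, and in the other 4 (Kat14, Ehmt2, Ezh1 and Prmt5) at least 1 was not. In 0 of these 4 did an uncalled probe lie on the other side of 0. Kat2b ILMN_2591641 and Kat5 ILMN_1232000 passed the detection filter only through the transgenic arrays, so they add no support to the other probes of their genes. Probes of a gene share its RNA and are no replicates of a condition.

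**Figure D3:**
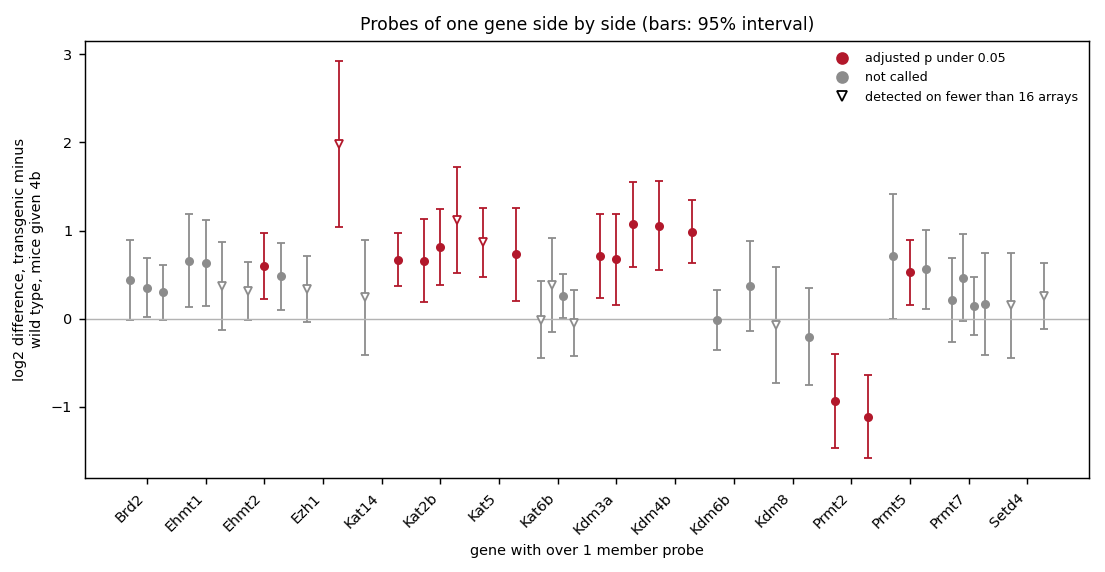
Log2 difference between transgenic and wild-type mice given 4b for each probe of the 16 genes with over 1 member probe, with 95% intervals (bars); red marks called probes and open triangles probes detected on fewer than 16 arrays. The 2 Prmt2 probes lie below 0 and the probes of Kat2b, Kat5, Kdm3a and Kdm4b above 0, while the Ezh1 probes lie at 0.34 and 1.98.

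The members' differences were above 0 at 53 of 66 probes with 4b and at 40 of 66 with vehicle. With 4b, the members' distribution lay to the right of that of all probes over most of its range, with a median of 0.37 against 0.02, and its lower end held the Prmt2 and Jmjd8 probes. With vehicle the medians were 0.19 and 0.01. Members were chosen by symbol, and many share complexes or targets, so the counts describe these probes and are no test of the set.

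**Figure D4:**
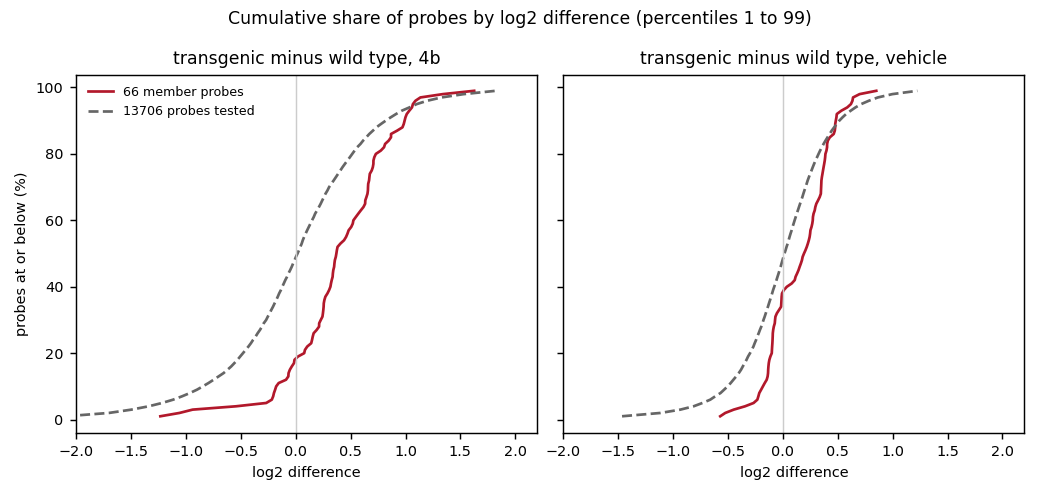
Cumulative share of probes (vertical axis, %) by log2 difference between transgenic and wild-type mice (horizontal axis), for the 66 member probes (solid red) and all 13706 probes tested (dashed grey), with 4b (left) and with vehicle (right). The member curve lies right of the curve of all probes at the median in both panels, at 0.37 against 0.02 with 4b and at 0.19 against 0.01 with vehicle.

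Per array, the members' median deviation from the wild-type vehicle mean was 0.39, 0.32 and 0.21 in transgenic mice given 4b, 0.31, 0.065, 0.28 and -0.029 in transgenic mice given vehicle, and between -0.20 and -0.049 in wild-type mice given 4b. Among wild-type mice given vehicle it ran from -0.083 to 0.12. Some markers of other cell types also differed between genotypes, mainly those of fibroblasts and tendon. The fibroblast and tendon score, the mean deviation over 5 of 6 listed genes (Tnmd was not tested), ran from -1.63 to -1.29 in transgenic mice given 4b, from -1.56 to -0.53 in transgenic mice given vehicle, from -0.087 to 1.66 in wild-type mice given 4b and from -0.71 to 0.39 in wild-type mice given vehicle. Its summed intensity ran from 18810 to 21653, from 19080 to 29569, from 24414 to 37991 and from 16158 to 30518 in that order of groups, and 5 of its 8 probes were lower with 4b. The skeletal muscle score ran from -0.58 to -0.092 in transgenic mice given 4b, from -0.43 to 0.0040 in transgenic mice given vehicle, from -0.30 to 0.18 in wild-type mice given 4b and from -0.057 to 0.062 in wild-type mice given vehicle, with 2 of 9 probes lower with 4b. Macrophage markers had 2 of 5 probes lower with 4b (4 of 6 genes tested, Cd68 and Csf1r not analysed here), adipocyte markers 1 of 5 higher although the median of the 5 was -0.87 (5 of 7 genes) and dividing-cell markers 0 of 4 called (3 of 7 genes). Lymphocyte markers, 8 of 9 genes tested, had 0 of 12 probes called. Their score was above 0 on some arrays of each group and read 1.27, 0.86 and -0.93 in transgenic mice given 4b. Their score ran from -0.93 to 1.27 in transgenic mice given 4b, from -1.02 to 3.65 in transgenic mice given vehicle, from -0.65 to 2.63 in wild-type mice given 4b and from -1.11 to 2.26 in wild-type mice given vehicle. Their summed intensity ran from 592 to 2986, from 509 to 17687, from 987 to 9214 and from 499 to 7367 in that order. The part of these cells in the differences of the enzyme genes was not tested.

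**Figure D5:**
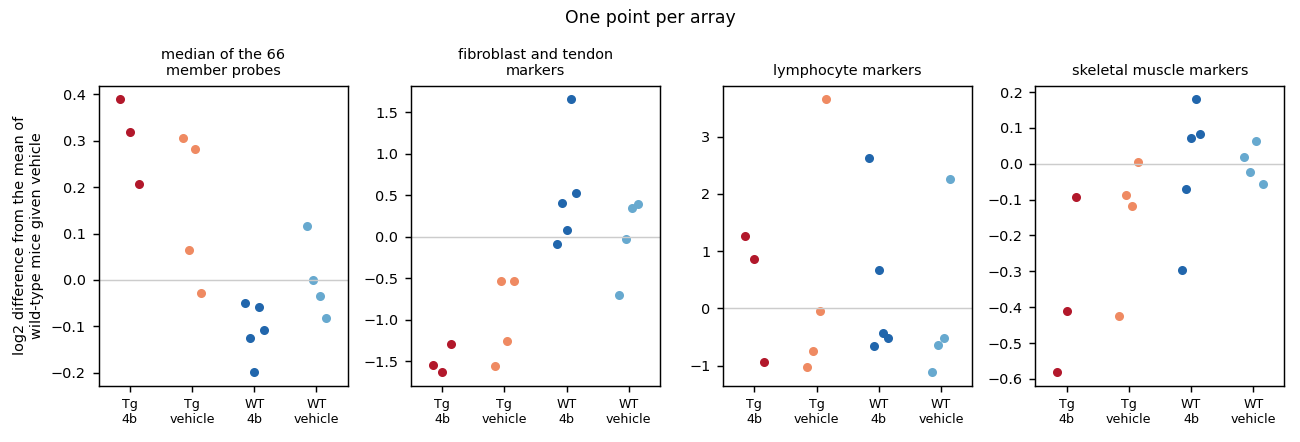
One point per array in the 4 groups, as a log2 difference from the wild-type vehicle mean: the median of the 66 member probes, and the mean of fibroblast and tendon, lymphocyte and skeletal muscle markers. The members' median is between 0.21 and 0.39 in transgenic mice given 4b and between -0.20 and -0.049 in wild-type mice given 4b, and the fibroblast and tendon score of transgenic mice given 4b lies between -1.63 and -1.29.

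Genes that work with these enzymes but carry other symbols were counted from 4 lists, with 80 of 110 listed genes tested on 116 probes. With 4b, 35 of the 116 were higher in transgenic mice (30.2%, against 15.6% of all probes) and 9 lower (7.76%, against 11.8%), with a median of 0.28. With vehicle 6 were higher and 6 lower (5.17% each, against 2.35% and 2.9% of all probes). Averaged over treatments 41 were higher (35.3%, against 17.9%) and 14 lower (12.1%, against 14.3%), and 0 were called for 4b in either genotype (limma). By list, with 4b, partners of Polycomb and trithorax enzymes had 10 of 24 probes higher and 1 lower, the list of acetyltransferase partners 12 of 37 higher and 2 lower, other readers 9 of 35 higher and 0 lower, and other histone methyltransferases 4 of 20 higher and 6 lower. The 6 lower probes of that last list were 1 each of Setmar, Smyd1 and Kmt5c and all 3 of Kmt5a, which monomethylates H4K20: they differed by -1.51, -1.75 and -1.61 with 4b and by -1.11, -1.15 and -1.14 with vehicle (limma adjusted p at most 0.00808). Kmt5b, which adds the further methyl groups to H4K20, was higher on both its probes, by 1.33 and 1.42 with 4b and by 1.03 and 0.90 with vehicle (adjusted p at most 0.0459). In the list of acetyltransferase partners, which also took in the PHD finger genes Ing1 and Ing2, known as subunits of Sin3 deacetylase complexes, Ing1 was higher (1.57 with 4b, 1.02 with vehicle) and Ing2 lower (-1.38 with 4b, -1.66 with vehicle), each called under both treatments. Of the Polycomb partners, Cbx7 (1.62) and Aebp2 (1.497) were higher and Cbx8 (-1.43) was lower with 4b. These genes were named after their values were seen.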

How the data were processed

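Gastrocnemius RNA of 16 mice was measured on an Illumina mouse bead array, 1 array per animal, per the labels. The deposited non-normalized table holds, for each array, every probe's bead intensity beside its detection p-value. The authors' deposited value table holds log2 values with a median of 7.11 on each array. They kept the order of the probes' intensities within each array. Sorted by size, they differed between arrays by at most 0.00058, which is what quantile normalization gives. The labels do not describe their normalization. As an alternative these values called 3857 of all probes with 4b, close to 3858 with no background correction, so they are hardly a separate check. Of 25697 probes, 23978 had 1 gene symbol in the platform annotation, 0 had several and 1719 had none, and 23962 matched the reference gene table.

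Intensities were background corrected from the detection p-values with normexp (offset 16), quantile normalized and log2 transformed in limma 3.58.1 (R 4.3.3). The filter (detection p-value below 0.05, 3 or more arrays) kept 13706 probes. limma then estimated 4 group means from the 16 arrays together, with Benjamini-Hochberg adjustment over all probes tested and calls at 0.05. Folds of dim probes depend on the offset. The number of arrays limits the precision. The p-values set a group difference against the spread between animals as limma estimates it. The fit was tested on simulated data.

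Named with values were the called members of each comparison (the 12 with the smallest p in each direction where over 24 were called), the 3 with the smallest p in each direction where 0 were called, and Ep300, Ezh1, Ezh2, Kdm1a, Kdm6b, Kat2b, Setd7, Prmt1 and Prmt5 always, with the other probes of each gene; exceptions are marked. The members, lists and rules were chosen with earlier results of these data known. Alternatives changed the background correction, offset, scaling, filter, probe choice, weights, moderation and arrays.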

Additional observations from a re-analysis of the deposited data

Results flagged for a closer look

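Of 93 sets of a named probe and a group of 4 or 5 arrays, 6 held 1 array whose gap to the nearest other exceeded Dixon's 95% limit; chance gives about 1 in 20 such sets. For Kat2b ILMN_1231686, replicate 4 of the transgenic mice given vehicle read 7.94, where the other 3 read 8.46 to 8.55. For Prmt2 ILMN_3099751, replicate 2 of the same group read 8.96, against 8.01 to 8.12. For Ezh2 ILMN_1234171, replicate 1 of that group read 8.23, against 7.88 to 7.90. Among wild-type mice given 4b, replicate 1 read 5.67 for Kat2b ILMN_2591641, against 4.83 to 4.88, and was the 1 array of that group on which the probe was detected. Kat2b ILMN_1215305 read 8.19 on replicate 2 of that group, against 7.62 to 7.77. For Jmjd8 ILMN_2896492, replicate 3 of the wild-type mice given vehicle read 8.32, against 8.02 to 8.06.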

How the results depend on the processing

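No paired analysis was possible because the labels give each animal its own number and the replicate numbers follow the order of deposit. Of 1380 alternatives to the named values, 1315 kept their direction and side of the threshold. In the others 49 calls were lost, 12 were gained and 4 values turned direction. Leaving out an array of a group outside a comparison cannot change its difference, and many values followed were uncalled at the start. The tally therefore overstates how firm the called values are. The counts of called members are not part of this tally, and those that changed by over 1.5 times are given next. With vehicle, the count of called members was 2 of 66, where 5.25% of all probes were called. It was 5 under median scaling (6.98% of all probes), 1 of 40 with 1 probe a gene (5.27%) and 4 with array weights (7.83%). It was 6 with the detected share as a covariate (9.94%). It was 0 without the 2 animals with a 3-digit number (2.28%) and 0 with only the arrays of the compared groups (1.18%). It also fell without the arrays with a lymphocyte score above 0, where the members' median was 0.24. With 4b it was 41 under median scaling and 0 without the lymphocyte arrays, in place of 26. For 4b in transgenic mice it was 9 with array weights, for the interaction 1 with array weights, and for the average over treatments 6 without the lymphocyte arrays in place of 30. These 2 ways of leaving out arrays were chosen after seeing the data, and the causes were not tested. With array weights 16.6% of all probes were called for 4b in transgenic mice and 1.01% for the interaction. Under median scaling 31.0% of all probes were called with 4b. Leaving out 1 array gave 0 to 3 calls with vehicle, 15 to 27 with 4b, 0 to 4 for 4b in transgenic mice, 0 to 0 for 4b in wild-type mice and for the interaction, and 24 to 32 on average. Without the lymphocyte arrays the 4b difference of Ezh1 ILMN_3107974 in transgenic mice was -0.23, and that of Prmt2 ILMN_1216953 in wild-type mice was -0.092; the Prmt2 value was also below 0 without WT_4b replicate 1 (-0.0026; without any 1 array it ran from -0.0026 to 0.27) and without the animals with a 3-digit number (-0.12). Of the 49 lost calls, 24 were lost without the lymphocyte arrays, 16 by leaving out 1 array and 9 otherwise. With 3 to 5 arrays a group, small differences of probes near background could not be measured.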
